A study of Mus musculus with 6 samples.

Results

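The 8 genes described here encode metalloproteinases of the ADAM and MMP families, 2 of their tissue inhibitors and the receptor of urokinase. They are Adam8, Adam10, Adam17, Adam19, Mmp9, Timp1, Timp2 and Plaur, chosen by symbol as candidates for matrix breakdown in an aneurysm, out of 27998 genes listed in the matrices. All 8 were found by symbol, and their raw UMIs (unique molecular identifiers, 1 per captured transcript) were read in all 6 libraries. Single-cell RNA sequencing had been done on CD4+ T cells sorted from C57/B6 mice aged 8 to 12 weeks, 14 days after elastase (PPE in the labels) was applied to the abdominal aorta. There were 3 spleen libraries and 3 vascular libraries, all from elastase-treated mice, so the control for the vascular cells is the spleen of the same model and untreated aorta was not analysed here. Aortic tissue was cut up and kept in dissociation enzymes at 37 °C for 1 h, while the spleens were ground without digestion, so tissue and digestion cannot be told apart in any comparison of the 2 tissues. The labels do not say whether the replicates were separate animals or pools, so the p-values reflect library-to-library spread alone, and part of that may be technical.

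ADAM proteases sit in the plasma membrane and cut the outer part off neighbouring membrane proteins, a step called shedding, whereas MMP9 is secreted and digests gelatin, basement membrane collagen and elastin. Tissue inhibitors of metalloproteinases (TIMPs) bind the active site of these enzymes. The urokinase receptor holds urokinase at the cell surface, where it turns plasminogen into plasmin, which in turn can activate MMPs. Breakdown of elastin and collagen in the aortic wall is a hallmark of abdominal aortic aneurysm, and macrophages, neutrophils and smooth muscle cells are the usual sources named for the enzymes.

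Adam8 (ENSMUSG00000025473) lies on the minus strand at chr7:139978932-139992562 in mm10, and Plaur (ENSMUSG00000046223) on the plus strand of the same chromosome at chr7:24462484-24475968. Adam10 (ENSMUSG00000054693) lies at chr9:70678997-70780229, Adam17 (ENSMUSG00000052593) at chr12:21323509-21373632, Adam19 (ENSMUSG00000011256) at chr11:46055992-46147343 and Mmp9 (ENSMUSG00000017737) at chr2:164940780-164955850. Timp1 (ENSMUSG00000001131) lies at chrX:20870166-20874735 and Timp2 (ENSMUSG00000017466) at chr11:118301069-118355740. All are protein coding in GENCODE M21. Adam17 overlaps Iah1, Adam19 overlaps Gm16033 and Gm16034, and Timp1 lies inside Syn1, in each case on the opposite strand, and the strand setting of the counting was not stated, so reads of these pairs could have been shared.

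The proximal promoters are shown for 3 genes called between tissues, Adam8 and Adam19 in T cells and Plaur in plasmacytoid dendritic cells. No Mmp9 window was used. RefSeq (GRCm38.p6) windows from 250 bases before to 50 bases after a start site were found for 7 of the 8 genes, 9 windows in all. They were searched on both strands for TGANTCA, the core site of the AP-1 transcription factors. Their Fos and Jun subunit genes are among the immediate early genes counted below, without values of their own. The site is its own reverse complement, so a match counts once. Capitals mark the match, and sequences run 5′ to 3′ along each gene's strand: Plaur at chr7:24462233-24462532 (plus), Adam19 at chr11:46055734-46056033 (plus) and Adam8 at chr7:139992513-139992812 (minus).
Plaur: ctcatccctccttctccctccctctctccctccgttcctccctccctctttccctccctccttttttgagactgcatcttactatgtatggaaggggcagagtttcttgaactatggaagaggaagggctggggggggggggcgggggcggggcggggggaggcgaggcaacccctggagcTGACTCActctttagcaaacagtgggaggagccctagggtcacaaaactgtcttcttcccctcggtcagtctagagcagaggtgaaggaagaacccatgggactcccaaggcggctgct
Adam19: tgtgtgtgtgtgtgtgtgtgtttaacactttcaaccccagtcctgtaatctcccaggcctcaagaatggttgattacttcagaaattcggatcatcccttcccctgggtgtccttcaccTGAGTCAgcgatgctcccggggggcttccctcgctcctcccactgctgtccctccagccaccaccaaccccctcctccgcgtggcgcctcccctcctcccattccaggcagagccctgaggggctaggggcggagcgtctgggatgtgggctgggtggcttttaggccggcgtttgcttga
Adam8: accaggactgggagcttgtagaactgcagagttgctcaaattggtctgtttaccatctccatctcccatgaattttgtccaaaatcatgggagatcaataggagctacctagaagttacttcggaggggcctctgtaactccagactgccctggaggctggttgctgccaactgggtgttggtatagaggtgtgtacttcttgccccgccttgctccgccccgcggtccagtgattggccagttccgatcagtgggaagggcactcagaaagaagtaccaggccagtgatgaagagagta
The Plaur window held TGACTCA with its first base at -69 from the start site, and this Adam19 window held TGAGTCA at -131. The other 7 windows held none: 2 further windows of Adam19 and 1 each of Adam8, Adam10, Adam17, Timp1 and Timp2. Among all 32851 windows of 300 bases in the table, 2565 (7.81%) held a match. These matches are letters in a window, not mapped binding sites.

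The libraries held 2312 to 9581 barcodes and 14836442 to 55483411 UMIs each. After filters and doublet removal, 38696 cells remained of 41315 barcodes, and library pairs shared 18 to 136 barcode sequences. A Cd3e+ cell here has at least 1 UMI of Cd3e, a chain of the T cell receptor complex, and none of Siglech. There were 18789 such cells in spleen and 17018 in vascular tissue, with library medians of 4195 to 5763 UMIs. The summed level of the T cell markers in them was 2808 to 3245 CPM (UMIs of the gene scaled to a common total per library) in spleen and 3088 to 3406 in vascular libraries, with Cd4 at 158 to 171 and 206 to 228 CPM. They were split by detection into Foxp3+ (1676 spleen and 1313 vascular cells), Ifng+ (1368 and 4873) and Il17a+ (34 and 398) cells, each with a UMI of that gene and none of the other 2, and into remaining cells with none of the 3 (15609 and 10177). Foxp3 marks regulatory T cells (Treg), Ifng the Th1 and Il17a the Th17 response. A cell without the UMI may still express the gene, so the remaining cells are a mixture. Siglech+ cells without Cd3e, 149 in spleen and 1126 in vascular tissue, are the plasmacytoid dendritic cells that passed the sort. They gave the background, with library medians of 7317 to 8456 UMIs and a plasmacytoid marker level of 15080 to 19590 CPM.

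UMIs were summed per library and gate. All levels below are CPM of these sums, with TMM-scaled library sizes unless raw is stated, and differences are log2 ratios of vascular over spleen with their SE from the quasi-likelihood test of edgeR, adjusted over all genes tested (Benjamini-Hochberg, called under 0.05). A summed level does not tell more cells with the gene from more RNA per cell, and levels of different genes were not compared. In Cd3e+ cells Adam8, Adam19 and Mmp9 were higher in vascular tissue, Plaur was lower, Adam10, Adam17 and Timp2 did not pass the test, and Timp1 was too sparse to be tested. These 3 higher and 1 lower of 7 tested genes stand beside a background in which 39.9% of 12090 genes were called, 22.1% higher and 17.8% lower, with a median difference of 0.01 over all genes. Levels of the 2 tissues did not overlap for these 4 members, beside 53.2% of all genes tested, so the number of members called is near what the tissues showed at large and the sizes below carry the description.

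Adam8, a protease-disintegrin first known from macrophages and carried by several leukocytes, showed the widest gap between tissues of the members tested in Cd3e+ cells as a whole. In Cd3e+ cells its level was 2.47, 1.74 and 3.43 CPM in spleen libraries 1 to 3 and 29.7, 23.3 and 22.7 CPM in vascular libraries 1 to 3. Every vascular library lay far above every spleen library. The difference was 3.30 ± 0.23 on the log2 scale, 9.85-fold (adjusted p = 3.1e-05, n = 3 against 3, edgeR), and it ran from 3.02 to 3.67 when each library was left out. These values rest on 277 UMIs in 175 spleen cells and 2296 UMIs in vascular cells. The UMIs per positive cell were 1.34 to 1.75 in spleen and 1.36 to 1.49 in vascular libraries, whereas the share of cells with a UMI differed. With each cell thinned to 1000 UMIs, 0.163% ± 0.0219 of spleen Cd3e+ cells and 2.36% ± 0.446 of vascular ones held an Adam8 UMI (SD, n = 3, exact two-sided permutation p = 0.1, the smallest 3 against 3 allow, adjusted p = 0.16 over the 8 members). Unthinned, 0.722% to 1.10% of spleen and 8.71% to 10.4% of vascular cells held one.

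In regulatory T cells Adam8 was 6.22, 6.81 and 8.76 CPM in the spleen libraries and 67.6, 57.9 and 48.6 CPM in the vascular ones. The ranges stood well apart, at a difference of 2.94 ± 0.19 (7.67-fold, adjusted p = 6.5e-06, edgeR). In Ifng+ cells it was 5.67, 4.24 and 11.6 CPM against 31.0, 24.3 and 34.5 CPM, a difference of 1.97 ± 0.28 (3.93-fold, adjusted p = 0.00052, and 2.68 without spleen library 3). The remaining cells had the lowest Adam8 in spleen, at 1.45, 0.735 and 1.08 CPM, and 20.3, 14.9 and 10.9 CPM in vascular tissue, which gave 3.92 ± 0.29 (15.2-fold, adjusted p = 6.2e-05). No library of one tissue reached the range of the other in any of these 3 gates. The background of called genes was 23.5% in Foxp3+ cells (13.8% higher, 9.71% lower), 27.0% in Ifng+ cells (14.9% and 12.1%) and 34.1% in the remaining cells (19.3% and 14.8%).

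In Il17a+ cells, few of which came from spleen, no tissue difference in Adam8 was called. Spleen library 1 had 4 such cells and was left out. Spleen libraries 2 and 3, with 10 and 20 cells, had 31.1 CPM (2 UMIs) and 147 CPM (31 UMIs, of which 13 in 1 cell), and vascular libraries had 99.98, 64.4 and 71.8 CPM. The vascular values lay between the 2 spleen values. The difference was -0.51 ± 0.40 (adjusted p = 0.45, edgeR, 2 against 3 libraries). It turned to 1.47 without spleen library 3, where spleen library 2 alone stood for the spleen. It was -1.13 when cells with a UMI of a set of other-lineage markers were removed. That left spleen library 3 alone, with 13 cells, so neither value shows a difference. In this gate 10.0% of genes were called (6.69% higher, 3.31% lower), and none of the tested members Adam8, Adam10, Adam17 and Adam19 was. Mmp9, Timp1, Timp2 and Plaur were too sparse to be tested there.

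Among the vascular gates Adam8 followed an order. Il17a+ cells had 78.7 ± 18.8 CPM and Foxp3+ cells 58.0 ± 9.46 (SD, n = 3), and their libraries overlapped. Ifng+ cells had 29.9 ± 5.18, the remaining cells 15.3 ± 4.71 and Siglech+ cells 0.651 ± 0.620 CPM, without overlap between these neighbours. Against the remaining cells of the same libraries, with library as a block, Adam8 was higher by 2.13 ± 0.19 in Il17a+ cells (4.39-fold, adjusted p = 3.4e-16), by 1.72 ± 0.10 in Foxp3+ cells (3.30-fold, adjusted p = 8e-09) and by 0.78 ± 0.18 in Ifng+ cells (1.72-fold, adjusted p = 0.022, edgeR). Without the block the call in Ifng+ cells was lost (adjusted p = 0.084). Vascular genes called between gates made up 46.6% for Foxp3+ (23.9% higher, 22.7% lower), 15.0% for Ifng+ (7.92% and 7.10%) and 15.0% for Il17a+ cells (8.30% and 6.71%). Of the members, 4 were higher and 1 lower in Foxp3+ cells, 3 higher and 1 lower in Ifng+ cells, and 3 higher and none lower in Il17a+ cells, each of 7 tested.

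**Figure D1:**
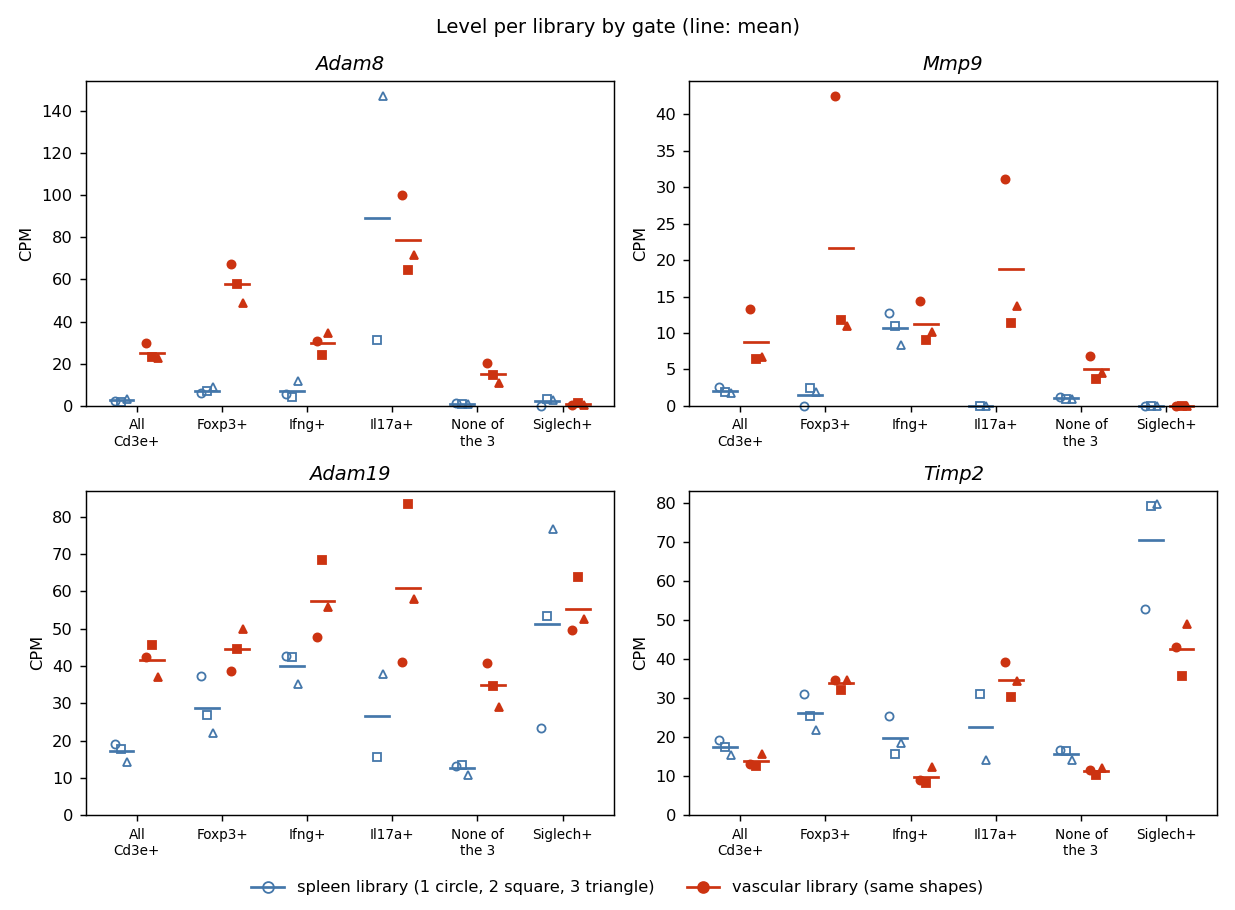
Level of Adam8, Mmp9, Adam19 and Timp2 (y axis, CPM of UMIs summed per library) in each gate (x axis), with 1 point per library (open blue for spleen, filled red for vascular) and a line at the mean of each tissue. Adam8 sits at 48.6 to 67.6 CPM in vascular Foxp3+ cells against 6.22 to 8.76 in spleen, and Mmp9 is at 0 in Siglech+ cells of all 6 libraries.

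Siglech+ cells of the vascular libraries held 1, 3 and 1 Adam8 UMIs, a pooled raw 0.512 CPM against 25.6 in Cd3e+ cells. That is a ratio of 49.997 (95% counting interval 21.4 to 154, counting error only). Unthinned, 0.173%, 1.19% and 0.337% of the Siglech+ cells of vascular libraries 1 to 3 held an Adam8 UMI, beside 8.71% to 10.4% of the Cd3e+ cells. In spleen the pooled levels were alike, with 277 UMIs in Cd3e+ and 3 in Siglech+ cells and a ratio of 0.948 (0.321 to 4.63). The pooled spleen level in Cd3e+ cells was thus not distinguishable at this depth from that in the background cells, which rested on 3 UMIs. This holds for the pool and not for each gate. Mean spleen Adam8 was 7.26 CPM in Foxp3+, 7.16 in Ifng+ and 1.09 in the remaining cells, beside 2.09 in Siglech+ cells. The tissue difference was larger in Cd3e+ than in Siglech+ cells by 5.65 ± 1.46 (adjusted p = 0.009, edgeR, library as a block), a call that was lost without spleen library 2 (4.74, adjusted p = 0.31) and held without vascular library 1 (4.89) or 2 (6.62). Adam8 was too sparse in Siglech+ cells for a tissue test there and entered this one through its Cd3e+ counts. The 5.65 exceeds the 3.30 of Cd3e+ cells alone, since it includes a Siglech+ estimate from 3 spleen and 5 vascular UMIs. It is not read as a result. In the test between Cd3e+ and Siglech+ cells 8.43% of genes were called (3.14% higher, 5.30% lower), and the median of all genes was -0.15.

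Mmp9, which encodes gelatinase B, rose in vascular Cd3e+ cells as well. Its level was 2.54, 1.96 and 1.72 CPM in the spleen libraries and 13.3, 6.46 and 6.76 CPM in the vascular ones. Vascular library 1 was the highest, and the lowest vascular library still lay above every spleen library. The difference was 2.15 ± 0.31 (4.45-fold, adjusted p = 0.00095, edgeR), and 1.71 to 2.32 with each library left out. The share of cells with an Mmp9 UMI at equal depth rose in mean from 0.250% ± 0.0758 to 0.836% ± 0.384 (SD over 3 libraries a tissue, exact p = 0.1, adjusted p = 0.16), and unthinned 0.672% to 1.08% and 2.55% to 3.96%. The 10 cells with the most Mmp9 held 16.0% to 21.2% of its UMIs in the vascular libraries and 34.1% to 63.9% in the spleen ones.

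The tissue difference of Mmp9 was not the same in all T cell gates. In spleen its level in Ifng+ cells was 12.8, 10.98 and 8.33 CPM, above all values of Foxp3+ cells (0, 2.495 and 1.89) and of the remaining cells (1.18, 0.872 and 0.978). Of 213 spleen Mmp9 UMIs, Ifng+ cells held 98 (46.0%) and the more numerous remaining cells 83 (39.0%). In vascular tissue the Ifng+ cells were at 14.3, 9.002 and 10.2 CPM, Foxp3+ cells at 42.5, 11.7 and 10.95 CPM and the remaining cells at 6.84, 3.73 and 4.46. Mmp9 thus did not differ detectably between tissues in Ifng+ cells (0.17 ± 0.23, adjusted p = 0.63, edgeR), and that value turned to between -0.086 and 0.30 when single libraries were left out. In Foxp3+ cells the estimate was 3.49 ± 0.68 (11.2-fold, adjusted p = 0.0044, edgeR), and 2.58 without vascular library 1. It rested on 0, 11 and 8 UMIs in spleen, and Mmp9 passed the count filter there only through the vascular libraries. That call is therefore not read as a result. In the remaining cells Mmp9 rose by 2.37 ± 0.28 (5.15-fold, adjusted p = 0.00041, edgeR). The difference between Ifng+ and remaining cells in this tissue gap was itself called, at -2.22 ± 0.26 (adjusted p = 0.0003, edgeR), in a test with 7.32% of genes called (2.57% higher, 4.75% lower).

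Within vascular tissue Mmp9 was higher than in the remaining cells in Foxp3+ cells, by 1.77 ± 0.23 (3.41-fold, adjusted p = 1.9e-05), in Il17a+ cells, by 1.59 ± 0.35 (3.01-fold, adjusted p = 0.00029), and in Ifng+ cells, by 0.97 ± 0.13 (1.96-fold, adjusted p = 0.0029, edgeR). The call in Il17a+ cells was lost without vascular library 1 (adjusted p = 0.10) and that in Ifng+ cells without the library block (adjusted p = 0.067). Vascular Il17a+ cells had 31.1, 11.4 and 13.8 CPM, on 19, 3 and 14 UMIs, overlapping the Foxp3+ values. The 34 spleen Il17a+ cells held no Mmp9 UMI, which allows up to 46.6 CPM in library 2 and 14.2 CPM in library 3 and so shows no difference. Siglech+ cells held none in any library. Against the 824 UMIs of vascular Cd3e+ cells that makes Mmp9 at least 29.9-fold higher there, taking a floor of 3 UMIs over the group.

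Neutrophils and macrophages are the cells best known for MMP9, so their markers were read in the same sums. In vascular Cd3e+ cells the 6 neutrophil markers summed to 0.0857 to 0.232 CPM, with Retnlg and Mmp8 at 0, and in spleen to 0.315 to 3.40 CPM. The 8 macrophage markers summed to 63.8 to 94.3 CPM in spleen and 74.6 to 101 CPM in vascular libraries, and none of them was at 0. Their ranges overlapped between tissues. Of the 8 single markers, 1 was above and 3 were below in all vascular libraries. A filter then removed cells with a UMI of C1qa, C1qb, C1qc, Lyz2, Csf1r, S100a8, S100a9, Retnlg or a set of markers of further lineages. It did not use Apoe, Adgre1, Cd68, Csf3r, Mmp8 or Ngp, so cells with those alone stayed in. After this filter the tissue difference was 3.38 for Adam8 (adjusted p = 2.2e-05), 1.37 for Adam19 (adjusted p = 7.7e-05) and 1.93 for Mmp9 (adjusted p = 0.0012, edgeR).

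Adam19, a shedding enzyme of neuregulin and other ligands, was the third of the genes that rose. In Cd3e+ cells it was 19.2, 17.8 and 14.4 CPM in spleen and 42.4, 45.5 and 37.1 CPM in vascular libraries. The vascular values lay at a tight range above the spleen values. The difference was 1.29 ± 0.13 (2.45-fold, adjusted p = 0.00014, edgeR), and the share of cells with an Adam19 UMI at equal depth went from 1.59% ± 0.380 to 4.06% ± 0.313 (SD, n = 3, exact p = 0.1), unthinned from between 6.58% and 9.47% to between 16.2% and 18.6%.

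The tissue gap of Adam19 was widest in the remaining cells. There it was 13.3, 13.6 and 10.8 CPM in spleen and 40.8, 34.6 and 29.0 CPM in vascular libraries, a difference of 1.47 ± 0.15 (2.78-fold, adjusted p = 0.00019). In spleen the Ifng+ cells already had 42.5, 42.4 and 35.2 CPM, and in vascular tissue they had 47.7, 68.5 and 55.8, a difference of 0.52 ± 0.15 (1.44-fold, adjusted p = 0.023). Foxp3+ cells had 37.3, 27.0 and 22.0 CPM against 38.8, 44.6 and 49.9, a difference of 0.70 ± 0.18 (1.63-fold, adjusted p = 0.02, edgeR). These last 2 calls were weak. The Ifng+ one was lost when spleen library 2 or 3 or vascular library 2 was left out (adjusted p up to 0.11). Leaving out library 2 or 3 of either tissue lost the Foxp3+ one (adjusted p up to 0.090).

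Compared directly, the tissue difference of Adam19 was smaller than in the remaining cells by 0.98 ± 0.19 in Ifng+ cells (adjusted p = 0.0073) and by 0.75 ± 0.20 in Foxp3+ cells (adjusted p = 0.029, edgeR). The test between Foxp3+ and remaining cells called 9.36% of genes (3.12% higher, 6.24% lower), and among the members Adam8 and Adam19 were lower and Timp2 higher in it. Unlike Adam8 and Mmp9, Adam19 was plentiful in Siglech+ cells, at 23.5, 53.3 and 76.8 CPM in spleen and 49.8, 63.9 and 52.5 CPM in vascular libraries. Its spleen libraries scattered over both sides of the vascular ones, and the difference was -0.04 ± 0.23 (adjusted p = 0.96). The tissue gap was larger in Cd3e+ than in Siglech+ cells by 1.19 ± 0.26 (adjusted p = 0.0016, edgeR), which was lost without spleen library 3 (adjusted p = 0.13).

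**Figure D2:**
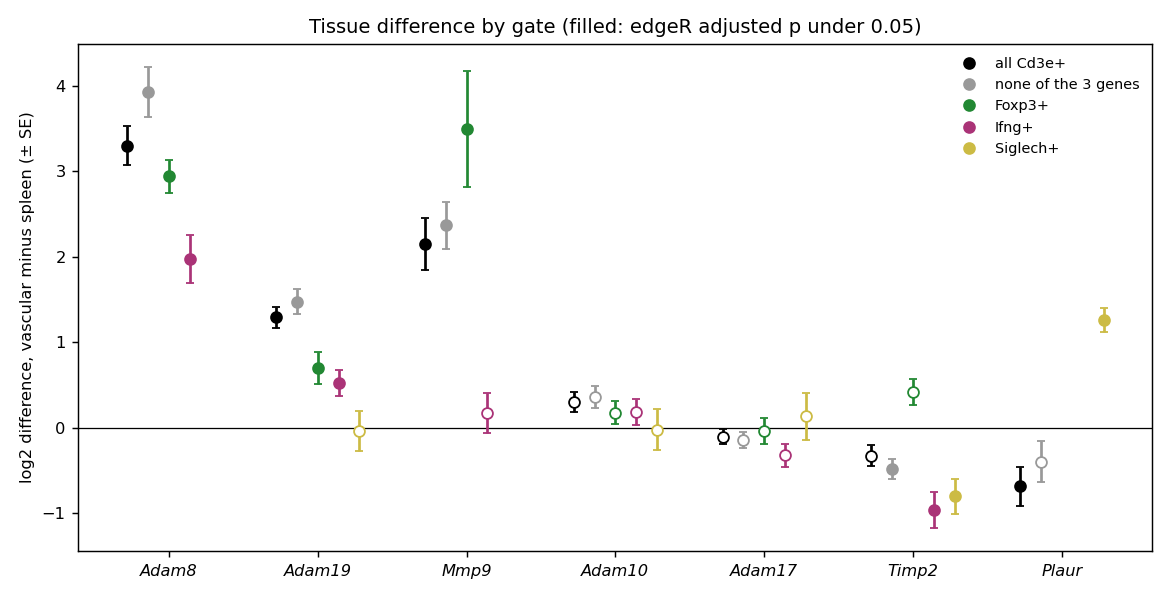
Tissue difference (y axis, log2 of vascular over spleen, error bars ± SE from edgeR) of the tested members (x axis) in all Cd3e+ cells and 4 gates (colours, with none of the 3 genes for the remaining cells), filled where the adjusted p is under 0.05. Adam8 lies above 0 in all 4 T cell groups shown, and Plaur is at 1.26 in Siglech+ cells and at -0.68 in Cd3e+ cells.

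Adam10 and Adam17 are the broadly expressed shedding enzymes of leukocytes, known for cutting Notch and for freeing tumour necrosis factor and L-selectin. Adam10 in Cd3e+ cells was 37.2, 27.3 and 29.1 CPM in spleen and 38.6, 38.9 and 37.0 CPM in vascular libraries. Spleen library 1 reached the vascular range. The difference was 0.30 ± 0.12 (adjusted p = 0.068, edgeR) and passed the threshold without spleen library 1 (0.41, adjusted p = 0.0044). In the remaining cells Adam10 was 35.5, 25.1 and 28.1 CPM against 39.3, 37.6 and 36.2, without overlap, at a difference of 0.36 ± 0.13 (adjusted p = 0.054). Adam17 was 19.9, 21.0 and 20.1 CPM in spleen and 18.5, 20.2 and 18.2 CPM in vascular libraries, with overlapping ranges and a difference of -0.10 ± 0.08 (adjusted p = 0.37). In Ifng+ cells the Adam17 values were 22.7, 26.9 and 23.8 CPM in spleen and 20.4, 20.7 and 18.1 CPM in vascular libraries, all lower. Neither gene was called between tissues in any gate.

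Across the vascular T cell gates, mean Adam10 ran from 37.7 ± 1.54 CPM in the remaining cells to 44.98 ± 0.642 in Il17a+ cells (SD, n = 3), and Siglech+ cells were at 33.6 ± 3.61. Adam17 means ran from 17.2 ± 0.771 CPM in the remaining cells and 19.8 ± 1.43 in Ifng+ cells to 25.7 ± 4.27 in Foxp3+, 33.4 ± 9.79 in Il17a+ and 39.5 ± 4.78 in Siglech+ cells. Ranges of Foxp3+ and Il17a+ cells overlapped, as did those of Il17a+ and Siglech+ cells. Adam17 was lower in Cd3e+ than in Siglech+ cells by 0.92 ± 0.11 (adjusted p = 3.3e-06), a test that called 68.0% of genes (35.8% higher, 32.2% lower), and higher in Foxp3+ than in remaining cells by 0.34 ± 0.12 (adjusted p = 0.03). The latter call was lost without vascular library 2 or 3 (adjusted p up to 0.26) and with DESeq2. Adam10 was higher in Cd3e+ than in Siglech+ cells by 0.37 ± 0.10 (adjusted p = 0.0036, edgeR), which was lost without vascular library 1 (adjusted p = 0.059).

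Timp2, the inhibitor that also helps to activate MMP2 at the cell surface, was lower in vascular than in spleen Ifng+ cells but not in Foxp3+ cells. In Foxp3+ cells it was 31.1, 25.4 and 21.8 CPM in spleen and 34.7, 32.1 and 34.6 CPM in vascular libraries, so that the vascular values lay just above the spleen ones. In Ifng+ cells it was 25.5, 15.7 and 18.5 CPM in spleen and 9.03, 8.20 and 12.3 CPM in vascular libraries, where every vascular library was below every spleen library. Timp2 fell in Ifng+ cells by 0.96 ± 0.21 on the log2 scale (0.516-fold, adjusted p = 0.0072), and its difference in Foxp3+ cells was 0.42 ± 0.15 (adjusted p = 0.071, edgeR).

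In the remaining cells Timp2 was 16.7, 16.5 and 14.2 CPM in spleen and 11.5, 10.2 and 12.1 CPM in vascular libraries, a difference of -0.48 ± 0.12 (adjusted p = 0.015) that was lost without spleen library 2 (adjusted p = 0.084) or vascular library 2 (adjusted p = 0.077). The gap between tissues was higher in Foxp3+ than in remaining cells by 0.87 ± 0.15 (adjusted p = 0.0015, edgeR), and this was called with each library left out. Within vascular tissue Timp2 was higher than in the remaining cells by 1.36 ± 0.12 in Foxp3+ cells (2.56-fold, adjusted p = 2.5e-07) and by 1.32 ± 0.25 in Il17a+ cells (2.49-fold, adjusted p = 3.5e-05), whose libraries were at 39.3, 30.3 and 34.4 CPM. In Ifng+ cells the same comparison gave -0.39 ± 0.12 (adjusted p = 0.068). Over all Cd3e+ cells Timp2 overlapped between tissues, with 19.3, 17.5 and 15.5 CPM in spleen, 13.2, 12.5 and 15.7 in vascular libraries and a difference of -0.33 ± 0.12 (adjusted p = 0.061).

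Mean Timp2 was higher in Siglech+ cells than in each T cell gate. Their level was 52.8, 79.2 and 79.6 CPM in spleen (9, 46 and 28 UMIs) and 43.1, 35.8 and 49.0 CPM in vascular libraries, with a difference of -0.80 ± 0.20 (0.574-fold, adjusted p = 0.012) that was lost without spleen library 2 (adjusted p = 0.22) or 3 (adjusted p = 0.089). In vascular tissue Timp2 was lower in Cd3e+ than in Siglech+ cells by 1.47 ± 0.10 (adjusted p = 8e-09, edgeR).

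Timp1, the main soluble inhibitor of MMP9, was nearly absent from these cells. Cd3e+ cells of the spleen libraries held 1, 17 and 2 UMIs, 16 of the 17 in 1 Ifng+ cell, and those of the vascular libraries 20, 7 and 3 UMIs. Siglech+ cells held none. At these counts no difference between tissues was detectable.

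**Figure D3:**
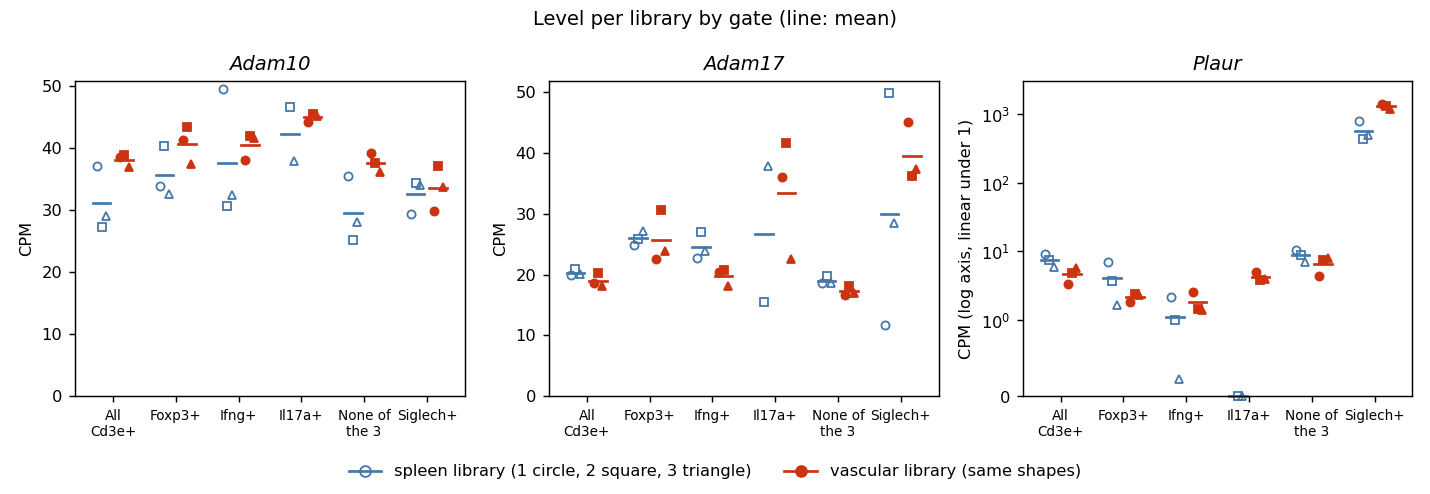
Level of Adam10, Adam17 and Plaur (y axis, CPM, on a symmetric log scale for Plaur) in each gate, with 1 point per library (open blue for spleen, filled red for vascular) and a line at the mean of each tissue. Adam10 and Adam17 overlap between tissues in all Cd3e+, Foxp3+, Il17a+ and Siglech+ cells but not in the cells with none of the 3 genes, and Plaur lies at 430.2 to 1386 CPM in Siglech+ cells and below 11 CPM in every T cell gate.

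Plaur, the urokinase receptor, was far higher in the plasmacytoid dendritic cells than in any T cell gate, in both tissues. In Siglech+ cells its level was 792, 430.2 and 489 CPM in spleen and 1386, 1285 and 1194 CPM in vascular libraries. Every vascular library exceeded every spleen library, by 1.26 ± 0.14 on the log2 scale (2.40-fold, adjusted p = 4.3e-06, edgeR), and by 1.11 to 1.52 with each library left out. In Siglech+ cells 9.22% of 7876 genes were called (5.70% higher, 3.52% lower), and of 5 members tested 1 was higher and 1, Timp2, lower. At 1000 UMIs per cell, 34.1% ± 6.27 of spleen and 60.9% ± 5.48 of vascular Siglech+ cells held a Plaur UMI (SD, n = 3, exact p = 0.1, adjusted p = 0.4), and unthinned 76.2% to 95% and 93.3% to 97.1%. Pooled over the vascular libraries, 12621 of 14459 Plaur UMIs (87.3%) were in Siglech+ cells, 8.98% in cells with both Cd3e and Siglech and 2.84% in Cd3e+ cells. In spleen 33.2% were in Siglech+, 44.8% in Cd3e+ cells and 18.2% in cells with neither marker.

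In Cd3e+ cells Plaur was 9.16, 7.56 and 5.87 CPM in spleen and 3.35, 4.88 and 5.64 CPM in vascular libraries. The closest libraries of the tissues nearly met, and the difference of -0.68 ± 0.22 (0.622-fold, adjusted p = 0.038, edgeR) lost its call when library 1 or 2 of either tissue was left out (adjusted p up to 0.089). In the remaining cells, which held most of it, the levels were 10.6, 8.83 and 6.98 CPM against 4.30, 7.46 and 7.97 and overlapped (-0.39 ± 0.24, adjusted p = 0.23). Within vascular tissue Plaur was lower than in the remaining cells by 1.84 ± 0.28 in Foxp3+ cells (adjusted p = 7.7e-05) and by 1.84 ± 0.32 in Ifng+ cells (adjusted p = 0.0071, edgeR), or by 2.61 in the latter without vascular library 1. These values rest on 20 Plaur UMIs in vascular Foxp3+ and 47 in vascular Ifng+ cells. Plaur was too sparse for a tissue test in either gate. Against Siglech+ cells, Plaur in vascular Cd3e+ cells was lower by 7.97 ± 0.15 (0.00399-fold, adjusted p = 1.9e-15), and the tissue difference of the 2 cell types differed by -2.12 ± 0.17 (adjusted p = 1.1e-11), with opposite signs.

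The small Plaur level of T cells was read beside that of genes typical of plasmacytoid cells. In the remaining cells of the vascular libraries, raw Plaur was 0.320% to 0.664% of the level in Siglech+ cells. Irf8, a transcription factor that plasmacytoid cells need, was at 0.453% to 0.591% and Tcf4, their master regulator, at 0.484% to 0.676%, whereas Klk1 was at 0.0251% to 0.0345%, Ly6d at 0.0709% to 0.115% and Bst2, which other cells also express, at 3.92% to 5.57%. In spleen the Plaur share was 1.37% to 2.005%, with Irf8 at 0.287% to 0.326%, Tcf4 at 0.231% to 0.390%, Klk1 at 0 to 0.00926%, Ly6d at 0.0349% to 0.183% and Bst2 at 3.37% to 4.16%. The part of free RNA in the T cell values of Plaur was not tested.

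**Figure D4:**
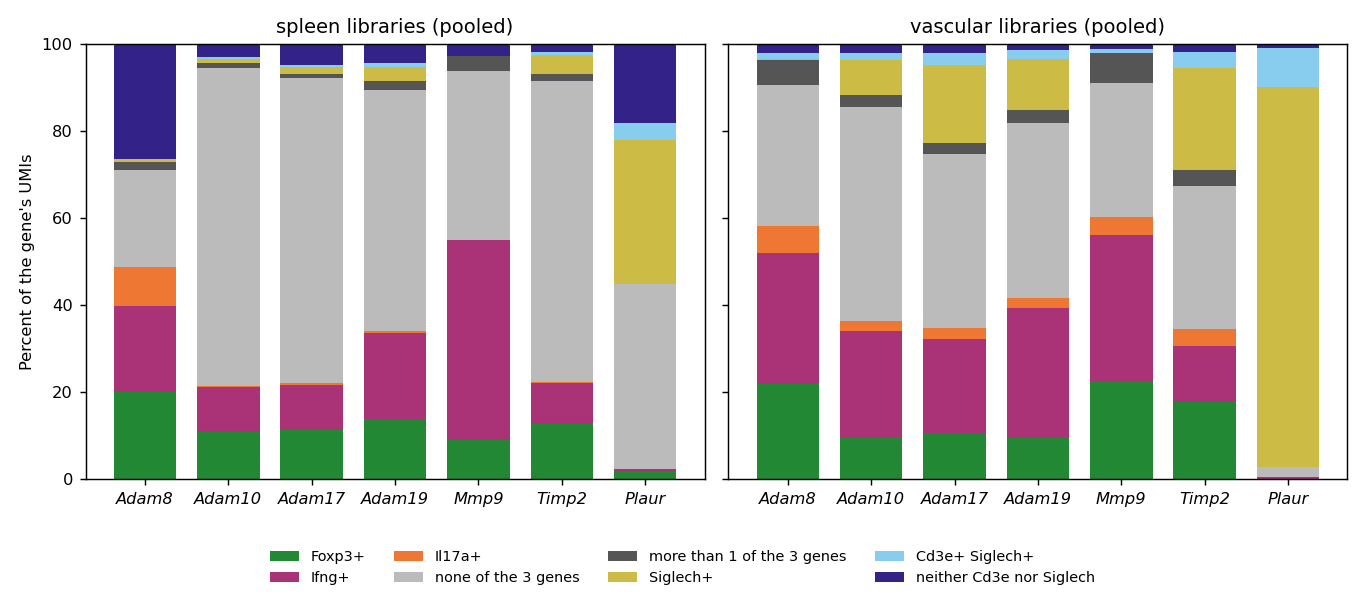
Share of each member's UMIs (y axis, percent, pooled over the 3 libraries of a tissue) found in each gate (stacked colours), for spleen and vascular tissue. Most vascular Plaur UMIs (87.3%) fall in Siglech+ cells, and 97.9% of vascular Mmp9 UMIs fall in Cd3e+ cells.

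In vascular tissue an Mmp9 UMI was seen more often in T cells with an Adam8 UMI than in those without. With cells thinned to 2000 UMIs, an Mmp9 UMI was seen in 29 of 369 Adam8-positive Cd3e+ cells of vascular library 1 (7.86%), in 4 of 148 of library 2 (2.70%) and in 9 of 228 of library 3 (3.95%). Among cells without an Adam8 UMI the shares were 1.89%, 1.30% and 1.10%. Timp2 was seen in 4.88%, 5.41% and 5.70% of the Adam8-positive and 2.203%, 2.26% and 2.32% of the other cells. Both were higher among Adam8-positive cells in 3 of 3 libraries. For Adam19 this held in libraries 1 and 3 (10.8% and 15.4% against 8.00% and 6.67%), but not in library 2 (8.11% against 8.38%). Adam8-positive and other cells had median depths of 4164 to 5090 and 4197 to 4866 UMIs before thinning. Gates were not separated here, cells of 1 library are not replicates, and no test was made.

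Genes whose level followed a member over the 23 sums of gate and library in T cells are given by Pearson r of log2(CPM + 1), as a description of sums that share libraries and cells. Adam8 was followed most closely by S100a4 (r = 0.94), a calcium-binding protein of effector cells, then Crmp1 (0.93) and the endoplasmic reticulum chaperone gene Hsp90b1 (0.93). For Adam19 they were Atxn1 (0.90), Ttc39b (0.90) and Bhlhe40 (0.88), for Mmp9 Tcf25 (0.88), Ctla2b (0.87) and Aldoa (0.87), and for Timp2 Nudcd2 (0.86), Umps (0.85) and Tnfrsf13b (0.81). For Plaur they were Tubb2a (0.85), Dusp10 (0.85) and Rpl21 (0.83), for Adam10 Gcc2 (0.82), Nol10 (0.77) and Rbl2 (0.75), and for Adam17 D1Ertd622e (0.84), Zfp414 (0.83) and Anapc13 (0.83).

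Other genes of the same systems are given for Cd3e+ cells by their counts in the tissue comparison, in which 22.1% of all genes were called higher and 17.8% lower, and by their median log2 difference, which was 0.01 over all genes. These lists, and those of partners and substrates below, were chosen with earlier results of these data known, so the counts are a description alone. Of 19 further ADAM and ADAMTS genes 7 could be tested, with 3 higher and 2 lower and a median of 0.10. Adam12 differed by 1.94 ± 0.24 and Adam9 by 1.87 ± 0.18, both at low levels (0.644 to 2.44 and 1.83 to 6.52 CPM in mean), and Adamtsl4 by -1.52 ± 0.35. Of 18 further MMP genes 5 could be tested, with 3 higher and 1 lower and a median of 1.38. The membrane-bound MMP gene Mmp25 differed by 2.18 ± 0.33 (0.789 to 3.81 CPM), Mmp15 by -1.95 ± 0.54 and Mmp10 by 1.76 ± 0.52, the last 2 with calls that were lost when single libraries were left out (adjusted p up to 0.070 and 0.094, edgeR). Without spleen library 2 Mmp10 was at 2.74, and without vascular library 3 Mmp15 was at -3.03. Of 7 further protease inhibitors 4 were tested, with a median of 0.43, and 2 were higher, the cystatin genes Cstb (0.45 ± 0.08) and Cst3 (0.43 ± 0.10). In the plasminogen system 4 of 6 tested genes were higher and 1 lower, with a median of 0.69. They included Serpine2, an inhibitor of plasminogen activators (2.17 ± 0.26), Anxa2, a plasmin-generating surface protein (0.77 ± 0.14), and Lrp1, the clearance receptor of protease-inhibitor complexes (-2.29 ± 0.53, and -3.01 without vascular library 2). Cathepsins had 2 of 8 tested genes higher and none lower, a share near that of all genes, with a median of 0.26. They were Ctsw (2.61 ± 0.25) and Ctsh (1.16 ± 0.14).

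Partners and substrates of ADAM10 and ADAM17 are read against the same 22.1% higher and 17.8% lower. Among 7 tested partners 4 were higher, 1 was lower and 2 were not called. Furin, the protease that removes the propeptide of ADAMs, went from 9.15 ± 2.08 to 54.7 ± 4.99 CPM (2.62 ± 0.15, adjusted p = 1.5e-05, edgeR), Tspan17 differed by 0.98 ± 0.24 and Frmd8, a partner of the iRhom proteins, by -0.67 ± 0.12. Among 13 tested substrates 7 were higher, 3 were lower and 3 were not called. Areg, a growth factor that ADAM17 frees, differed by 3.78 ± 0.14 (16.7 ± 2.76 to 227 ± 21.9 CPM), Havcr2, which encodes TIM-3, by 3.12 ± 0.25 and Tnfrsf1b, the second tumour necrosis factor receptor, by 2.11 ± 0.16. Medians were 0.39 for the partners and 0.79 for the substrates, beside 0.01 for all genes. Transcript levels do not measure shedding.

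The tissue difference ran beside a strong heat shock and immediate early signal, which digestion at 37 °C and tissue cannot be told apart for. In Cd3e+ cells 6 of 7 heat shock genes were higher in vascular libraries and none lower (median 2.501), beside 22.1% of all genes higher, with Hspa1a at 7.96 ± 1.45 and 1667 ± 83.6 CPM (7.74 ± 0.16), Hspa1b at 7.32 ± 0.15 and Dnajb1 at 2.52 ± 0.11 on the log2 scale. Of 11 immediate early genes 10 were higher (median 0.92), led by Atf3 (3.08 ± 0.30), Ier3 (2.43 ± 0.15) and Nr4a1 (1.89 ± 0.22). The part of these genes in the differences of Adam8, Adam19 and Mmp9 was not tested. Both lists were chosen with earlier results of these data known, so their counts beside all genes are a description alone. In Siglech+ cells of the same libraries all 7 heat shock genes were higher as well, with Hspa1a at 25.2 ± 18.9 and 683 ± 58.5 CPM, and 5 of 11 immediate early genes were higher and 1 lower, beside 5.70% of all genes higher and 3.52% lower. Medians were 1.80 and 0.35, and -0.01 over all genes. Siglech+ cells held 3 Adam8 UMIs in spleen and 5 in vascular tissue and no Mmp9 UMI in either, and their Adam19 difference was -0.04. They are another cell type with next to no Adam8 or Mmp9, so these values do not bear on the differences of Adam8 and Mmp9 in T cells. Adam19 was plentiful in them, at means of 51.2 CPM in spleen and 55.4 CPM in vascular libraries. What its value there means for T cells was not tested.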

How the data were processed

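UMI counts per gene and barcode were deposited by the authors as unnormalized matrices of 27998 genes for 6 libraries. Reads had been processed with FastQC 0.11.8, Cell Ranger 2.2.0, STAR 2.5.1b and Seurat on mm10, per the submitters' processing notes. The roles and order of these tools and the strand setting are not given in the sources used here. Per the labels' protocols, the kit captures 5' transcript ends.

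Filters of 300 or more genes and a mitochondrial share of 10% or less kept 41303 barcodes. Doublet scores came from simulated doublets of the same library (2 per cell, 45 neighbours), and 0.8% per 1000 barcodes were removed (2607). UMIs were summed per library and gate, gates with under 10 cells being left out. The two-sided test was quasi-likelihood in edgeR 4.0.16 (R 4.3.3, TMM, filterByExpr, tissue as the only term, or library as a block within vascular tissue and in tests of differences between gates). SEs were derived as the absolute log2 difference over the root of F. The fit was tested on simulated data. Shares of cells were thinned to 1000 UMIs with no cell left out and compared with an exact permutation test. Counting intervals are at 95% and exact, they and the floors of 3 UMIs cover counting error only. DESeq2 1.42.0, other gates, filters, a replicate block and left-out libraries were alternatives.

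The 8 members are named throughout. From other lists up to 3 called genes with the largest differences are named, and for genes of like pattern the 3 highest correlations among genes with a mean of at least 20 CPM. The members and lists were chosen with earlier results of these data known. T cell marker Trbc2 was not found by that symbol. Equal replicate numbers were not taken as pairs. Replicates were not the same library deposited again (chi-square per degree of freedom 12.3 to 42.2).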

Additional observations from a re-analysis of the deposited data

Results flagged for a closer look

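These 9 results are member calls from tests that compared the tissue difference (vascular over spleen, log2) between 2 kinds of cells. Each test used cells of the same libraries, with library as a block (edgeR, adjusted over all genes, n = 3 libraries a tissue). The tests called 9.36% of all genes for Foxp3+ and 7.32% for Ifng+ against remaining cells, and 8.43% for Cd3e+ against Siglech+ cells. Adam8 in the last test is listed but not read as a result. Mmp9, without a UMI in Siglech+ cells, was not considered for flagging there.

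Between Foxp3+ cells and the remaining Cd3e+ cells, the tissue difference of Timp2 differed by 0.87 (adjusted p = 0.0015), and the call held with each library left out (adjusted p up to 0.016) and in the other alternatives run. For Adam8 it differed by -1.003 (adjusted p = 0.028) and for Adam19 by -0.75 (adjusted p = 0.029, edgeR), so both rose less in Foxp3+ cells on the log2 scale. In CPM, mean Adam8 rose more in Foxp3+ cells, from 7.26 to 58.0, than in the remaining cells, from 1.09 to 15.3. The low spleen level of the latter rests on 85 UMIs. These 2 calls were frail. That of Adam8 was lost when spleen library 2, spleen library 3, vascular library 1 or vascular library 2 was left out (adjusted p up to 0.19, edgeR). It was also lost with DESeq2 and with cells free of the other-lineage markers used. That of Adam19 was lost without each library but vascular 3 (adjusted p up to 0.098), with DESeq2 and with doublets kept.

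Between Ifng+ cells and the remaining Cd3e+ cells, Mmp9 differed by -2.22 (adjusted p = 0.0003) and held with each library left out (adjusted p up to 0.0058). Adam8 differed by -1.95 (adjusted p = 0.011), which was lost without spleen library 3 (-1.34, adjusted p = 0.28), and Adam19 by -0.98 (adjusted p = 0.0073), which was lost without spleen library 2 (adjusted p = 0.053).

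Between Cd3e+ and Siglech+ cells, Plaur differed by -2.12 (adjusted p = 1.1e-11) and held with each library left out. Adam8 differed by 5.65 (adjusted p = 0.009), on 3 spleen and 5 vascular UMIs in Siglech+ cells, and was lost without spleen library 2 (4.74, adjusted p = 0.31) and with at least 3 Siglech UMIs (4.43, adjusted p = 0.27). At these counts Adam8 could not be tested in Siglech+ cells alone, so the value is not read as a result. Adam19 differed by 1.19 (adjusted p = 0.0016) and was lost without spleen library 3 (adjusted p = 0.13) and with DESeq2 (adjusted p = 0.057).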

How the results depend on the processing

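The 53 member results gave 569 values under the alternatives: 489 kept direction and side of the threshold, 55 lost and 15 gained a call, and 10 reversed. The reversed ones had a main value near 0 or rested on few cells. Mmp9 in Ifng+ cells ran from -0.086 to 0.30 and Adam8 in Il17a+ cells from -0.82 to 1.47 with single libraries left out. Adam19 in Siglech+ cells (main -0.04) ran from -0.18 to 0.27 so, and was 0.0022 with at least 3 Siglech UMIs, 0.047 with the replicate block, 0.038 without the filter on low counts and 0.012 with DESeq2. Of the 25 named list genes, 290 of 299 values stayed and 9 lost a call.

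Counts of called genes moved by more than 1.5 times as follows. In Il17a+ cells 411 genes became 696 with at least 20 cells, 694 without other lineages, 273 with the replicate block, 763 without the filter and 253 with DESeq2. With DESeq2 the counts were 3033 (main 4995) for Foxp3+ against remaining cells, 849 (1641) for Ifng+, 823 (1551) for Il17a+, and 546 (1030), 477 (823) and 465 (979) for the differences of tissue differences in Foxp3+, Ifng+ and Cd3e+ against Siglech+ cells. The Ifng+ one was 1300 without the filter. Without the replicate block 436 genes were called for Ifng+ and 860 for Il17a+ against remaining cells. Leaving out single libraries gave 3130 to 5779 genes (main 4829) in Cd3e+ cells, 1340 to 2640 (2267) in Foxp3+, 1634 to 3195 (2693) in Ifng+, 120 to 696 in Il17a+, 2076 to 4518 (3848) in the remaining and 347 to 814 (726) in Siglech+ cells. It gave 944 to 2198 for Ifng+ and 919 to 1366 for Il17a+ against remaining cells, and 507 to 1084, 301 to 1195 and 494 to 1208 for the 3 differences of differences. The cause was not tested. Fits without a library had fewer samples.

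Pairing by replicate number was not assumed: deviations of same-numbered libraries correlated at 0.097, -0.082 and 0.197 over 6756 genes. With the replicate block 4704 genes were called in Cd3e+ cells, Plaur there (adjusted p = 0.068) and Adam19 in Foxp3+ cells (adjusted p = 0.055) lost their calls, and Adam10 in the remaining cells gained one (adjusted p = 0.036). The minimum of 20 cells was not run for Cd3e+ and Siglech+ cells. Depth limits Timp1, spleen Il17a+ cells and Adam8 and Mmp9 in spleen Siglech+ cells.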

Other observations

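Adam8 UMIs in spleen were not confined to cells with a Cd3e UMI. Of 380 spleen Adam8 UMIs, 100 (26.3%) were in the 824 cells with neither Cd3e nor Siglech, which had a raw level of 24.4 ± 1.61 CPM (22.7 to 25.9, SD, n = 3). Their 554 vascular counterparts had 20.9 ± 3.91 CPM (17.9 to 25.3). What these cells are was not settled, since a cell without a Cd3e UMI may still express Cd3e. Their Plaur was at 69.6 ± 9.75 CPM in spleen and 59.3 ± 29.1 in vascular libraries, and their Mmp9 at 6 UMIs in spleen and 10 in vascular tissue.

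Markers of some other cells differed between tissues in the Cd3e+ sums. The 4 fibroblast markers summed to 0.0210 to 0.145 CPM in spleen and 1.54 to 3.13 in vascular libraries, with Pdgfra at 0, and the 2 platelet markers to 0.0630 to 0.106 and 0.927 to 1.01 CPM. The 2 haemoglobin genes ranged from 20.4 to 186 and from 0.189 to 239 CPM. Their part in the member results was not tested.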
